A study of Mus musculus with 12 samples.

Results

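The 9 genes described here, Tcf7, Lef1, Satb1, S1pr1, Il7r, Igfbp4, Actn1, Gpr83 and Foxp1, are grouped as naive, central or recirculating T cell genes. They were chosen by symbol with earlier results of these data known, leaving out Ccr7, Bach2 and Klf2. Comparisons of the group with all tested genes are therefore descriptions and not tests of the group. All 9 were found among the 23361 gene rows of the table, and all 9 were among the 10868 genes tested, which had 10 rescaled counts or more in 3 or more of the 12 libraries. Igfbp4 reached that level in 3 of 6 islet and 6 of 6 NDL libraries, Actn1 in 5 and 6, and the other 7 genes in all 12. The libraries hold RNA of mouse regulatory T cells (Tregs) in a model of autoimmune diabetes, 3 in each of 4 groups: Lag3-deficient Tregs from islets, Wt Tregs from islets, Lag3-deficient Tregs from NDL (non-draining lymph nodes) and Wt Tregs from NDL. The genotype called Lag3-deficient here is labelled Lag3, and the material is described as cytoplasmic RNA. The labels used here give no strain, age, sex, sorting markers or cells in which Lag3 was deleted. They do not say whether libraries of 1 group came from different animals, and each p-value measures the spread between these libraries, which may be technical.

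Naive T cells and resting Tregs circulate between blood and lymph nodes. They are guided into nodes by the chemokine receptor Ccr7, live on IL-7 or IL-2, and leave along a gradient of sphingosine 1-phosphate that S1pr1 senses. The transcription factors TCF1 (encoded by Tcf7) and LEF1 keep a quiescent or memory-like state, FOXP1 holds naive T cells quiescent, and SATB1 organises chromatin in developing and resting T cells. After strong activation, effector T cells and effector Tregs usually lower these genes and settle in tissues.

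Levels are given in CPM, counts per 1 000 000 of the deposited rescaled counts after scaling between libraries, and are compared within a gene, not between genes. Differences are log2 fold changes of CPM + 1, islet over NDL or Lag3-deficient over Wt, ± SE, and understate changes of genes near 0. A gene passed at a limma p under 0.05 after Benjamini-Hochberg adjustment over all 10868 genes. The column totals were between 15232498 and 15370098 in all 12 libraries, so depth cannot be read from them. Headers number the columns of each group 1, 2 and again 1, written here as 1a, 2 and 1b, and values of 3 libraries follow that order. The 4 columns 1b had a higher share of ribosomal RNA, with 1.26 to 1.68% of their total in Rn45s, while the remaining 8 columns had 0.149 to 0.571%. The targeted gene Lag3 had 1, 0 and 0 rescaled counts in Lag3-deficient islet libraries and 40, 48 and 120 in Wt islet libraries, and 1, 0 and 3 in Lag3-deficient NDL libraries and 2, 5 and 6 in Wt NDL libraries. Foxp3, the Treg lineage factor, was at 224 to 483 CPM in islet and 311 to 654 CPM in NDL libraries, and its difference did not pass (-0.51 ± 0.28, adjusted p = 0.518). Of the 6 Treg markers listed 3 had a positive and 3 a negative fold change. Ctla4 alone of them passed (2.66 ± 0.24, adjusted p = 2.03e-06), where 0.819% of tested genes were called higher. It averaged 2421 ± 567 CPM in islets and 390 ± 115 CPM in NDL. Il2ra averaged 282 ± 92.9 and 501 ± 177 CPM (-0.82 ± 0.31, adjusted p = 0.291). Summed, the 6 markers were at 3150 to 5266 CPM in islet and 1811 to 2639 CPM in NDL libraries.

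Markers of pancreas cells were higher in islet libraries. Summed exocrine pancreas markers were at 33.5 to 2339 CPM in islet and 0 to 4.79 CPM in NDL libraries, and endocrine markers at 2.20 to 227 and 0 to 0.363 CPM. CD8 T cell and NK cell markers summed to 67.2 to 442 CPM in islet and 19.6 to 115 CPM in NDL libraries, and the ranges overlapped. The sums of B cell markers (6.94 to 220.1 CPM in islet, 22.1 to 99.2 CPM in NDL), myeloid markers (0.278 to 103 and 0 to 35.8 CPM) and stromal and endothelial markers (1.42 to 95.5 and 6.52 to 113 CPM) also overlapped between tissues. Pax5, which defines B cells, was at 0 in all 12 libraries, and Klrd1, Gzma and Ncr1 of the NK cell markers were at 0 in Lag3-deficient NDL. The summed CD8 T cell and NK cell markers were still higher in Lag3-deficient NDL (55.0 to 115 CPM) than in Wt NDL (19.6 to 29.4 CPM), without overlap. Of the exocrine genes 5 of 8 tested rose in islets, where 0.819% of tested genes did. Ctrb1, Cela2a, Cpa1, Cpb1 and Reg1 were at 0 in all 6 NDL libraries, and Pnlip and Prss2 at 0.121 CPM or less. These genes met the filter through islet libraries alone, so their direction was fixed. Nkg7 also rose (302 ± 146 CPM in islets and 50.9 ± 35.4 CPM in NDL), among 3 tested of 7 CD8 T cell and NK cell genes. The other two tested, Cd8b1 (0.501 ± 1.02 and 2.77 ± 3.70 CPM) and Cd8a (5.13 ± 6.72 and 2.50 ± 4.74 CPM), did not pass. The part of such cells in the differences below was not tested, and in bulk RNA fewer cells expressing a gene and less of its RNA per cell cannot be told apart.

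Of the 9 genes, Gpr83 and Igfbp4 passed a test below, so the 250 bases before their start sites are shown, with those of Satb1, which shared a motif with Igfbp4 (RefSeq, GRCm38.p6, strand of the gene, 5′ to 3′). Capitals mark matches to the KLF motif GGGTGTG or its reverse complement CACACCC, and to the TATA box TATAAA.
Igfbp4, chr11:99040994-99041243, plus strand: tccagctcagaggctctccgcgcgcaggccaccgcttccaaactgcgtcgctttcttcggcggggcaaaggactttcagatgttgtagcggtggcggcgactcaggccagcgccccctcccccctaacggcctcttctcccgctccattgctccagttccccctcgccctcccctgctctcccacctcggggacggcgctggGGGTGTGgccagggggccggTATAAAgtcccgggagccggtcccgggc
Gpr83, chr9:14859960-14860209, plus strand: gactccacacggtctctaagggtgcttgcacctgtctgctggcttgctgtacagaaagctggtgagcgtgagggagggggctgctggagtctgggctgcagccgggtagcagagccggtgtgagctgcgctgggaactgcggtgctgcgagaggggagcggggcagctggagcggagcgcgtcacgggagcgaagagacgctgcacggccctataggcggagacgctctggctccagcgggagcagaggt
Satb1, chr17:51833291-51833540, minus strand: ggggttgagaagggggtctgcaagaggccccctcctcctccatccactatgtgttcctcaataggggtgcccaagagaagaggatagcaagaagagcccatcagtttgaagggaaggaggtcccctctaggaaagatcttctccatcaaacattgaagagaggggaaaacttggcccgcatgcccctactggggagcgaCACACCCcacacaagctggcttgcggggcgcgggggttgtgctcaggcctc

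RefSeq windows were matched for 8 of the 9 genes, S1pr1 being the one without, and the most upstream start was taken where a gene had several. In the 250 bases before the start, on both strands, the TCF and LEF motif CTTTGAT was found in 0 of 8 genes and in 3.26% of 27025 promoters. The forkhead motif TGTTTAC (3.06% of promoters), the ETS motif CCGGAAG (7.07%) and the AP-1 motif TGACTCA (4.43%) were also in 0 of 8. The KLF and TATA box motifs were added after the sequences had been read. The KLF motif stood before Igfbp4 and Satb1, 2 of 8 genes against 6.90% of all promoters, and TATAAA before Igfbp4, 1 of 8 against 12.98%. A match is a string of letters and not a site shown to be bound.

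Islet Tregs were first compared with NDL Tregs over both genotypes, 6 libraries against 6, to ask how these genes stand in Tregs at the site of disease. Gpr83 and Igfbp4 fell in islet libraries, and of the other 7 genes 6 had a negative and 1 a positive fold change, none of which passed. The 2 called genes compare with 0.101% of the 10868 tested genes called lower (11 genes) and 0.819% called higher (89 genes). With the deposited totals in place of the scaling factors, these counts were 24 and 82. The median fold change was -1.03 over the 9 genes and -0.04 over all tested genes, of which 52.1% were negative.

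**Figure D1:**
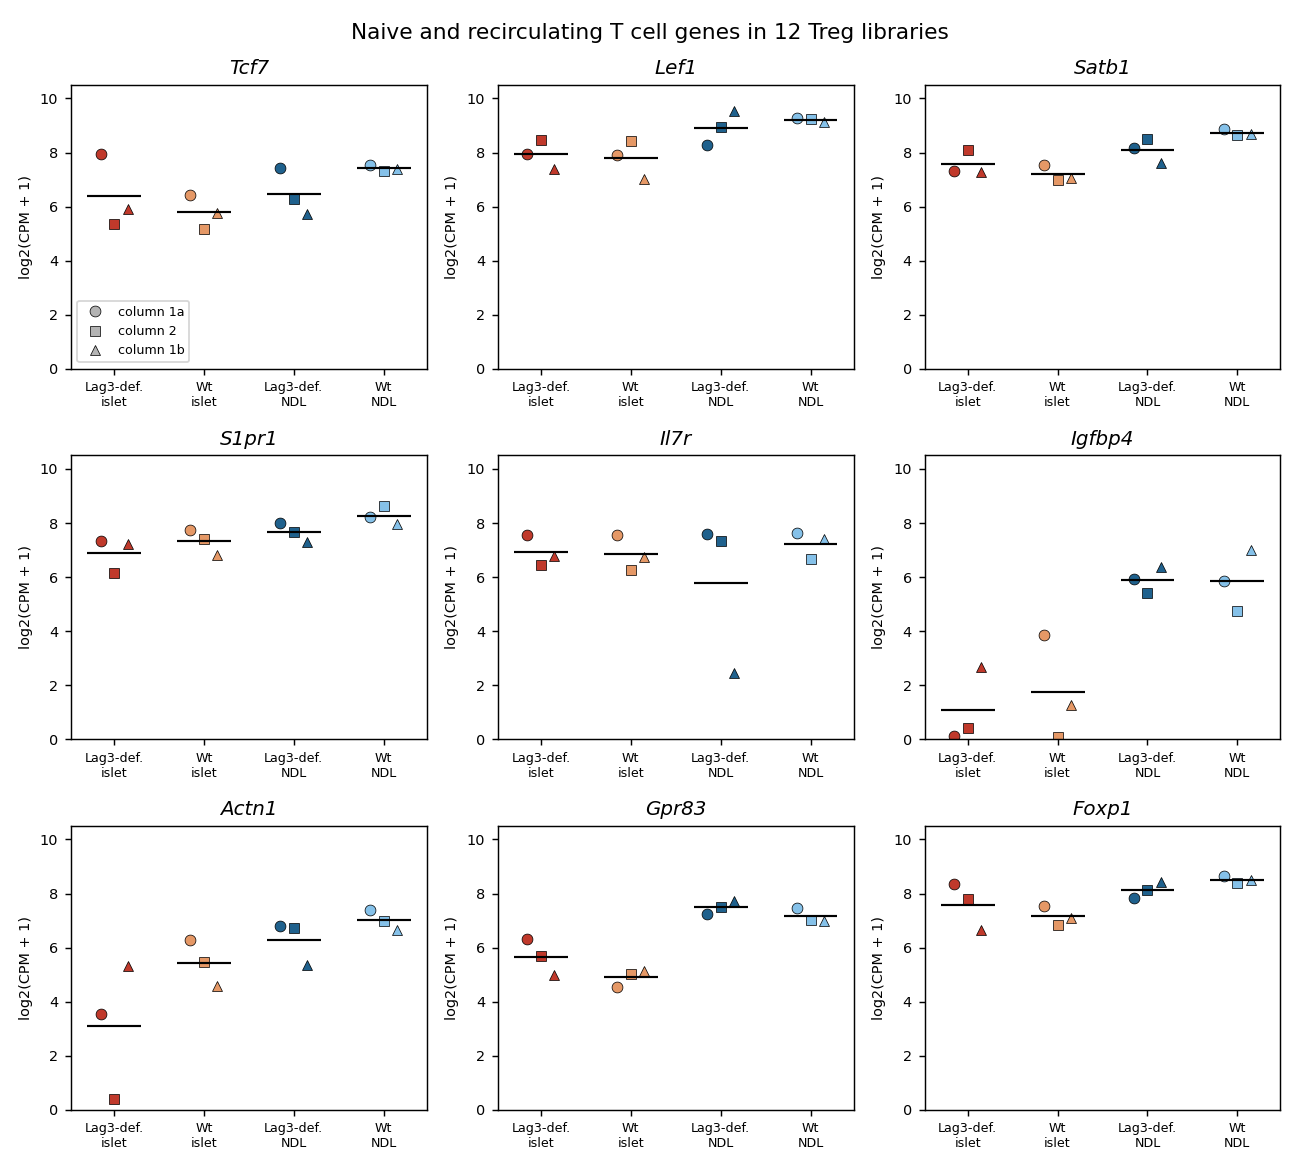
Levels of the 9 genes as log2(CPM + 1) in each library, with Lag3-deficient and Wt islets left of Lag3-deficient and Wt NDL, symbols for columns 1a, 2 and 1b, and a bar for the mean of the 3 log2 values. All 6 islet libraries lie below all 6 NDL libraries for Gpr83 and Igfbp4, and a single Lag3-deficient NDL library is low for Il7r (4.42 CPM).

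Among the receptor genes, Gpr83 encodes a G protein-coupled receptor that Tregs express more than other CD4 T cells in mice (ENSMUSG00000031932.14, chromosome 9, 14860210 to 14870789, plus strand, GRCm38). It was at 77.9, 51.0 and 30.5 CPM in Lag3-deficient islet libraries and 22.5, 31.9 and 34.5 CPM in Wt islet libraries. NDL levels were 149.6, 179 and 211 CPM without Lag3 and 177, 129 and 125 CPM in Wt Tregs. The lowest NDL library was thus above the highest islet library, which held lower in islets for 0.478% of tested genes. The means were 41.4 ± 20.2 CPM in islets and 162 ± 33.3 CPM in NDL (SD, n = 6 each), with a difference of -2.03 ± 0.40 (adjusted p = 0.0144). The call was lost without Wt NDL 1a (adjusted p = 0.0529) and without the 4 columns 1b (0.0797).

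S1pr1, the receptor that lets lymphocytes leave lymph nodes, lies on chromosome 3 (115710433 to 115715072, minus strand). It was at 159, 70.0 and 149 CPM in Lag3-deficient islet libraries and 211, 169 and 112 CPM in Wt islet libraries. Its NDL levels were 258, 203 and 155 CPM in Lag3-deficient Tregs and 296, 391 and 249 CPM in Wt Tregs. The tissues overlapped, since Lag3-deficient NDL 1b lay below 3 islet libraries, and the difference did not pass (-0.85 ± 0.33, adjusted p = 0.312). Il7r encodes the alpha chain of the IL-7 receptor, which Tregs carry at lower density than naive T cells. It was at 186, 85.8 and 108 CPM in Lag3-deficient islet libraries and 189.6, 75.0 and 106 CPM in Wt islet libraries, against 190.1, 159 and 4.42 CPM in Lag3-deficient NDL and 195, 99.5 and 171 CPM in Wt NDL libraries. Leaving aside Lag3-deficient NDL 1b, at 59 rescaled counts, the ranges of islets and NDL nearly coincided. The islet mean was below the NDL mean (125 ± 50.3 and 136 ± 73.2 CPM, SD, n = 6 each) while the log2 difference was positive (0.38 ± 0.66, adjusted p = 0.879), and without that library it was -0.45.

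Igfbp4 encodes a secreted protein that binds insulin-like growth factors, and its transcript is a common marker of naive T cells in mouse data (ENSMUSG00000017493.12, chromosome 11, 99041244 to 99054392, plus strand, with the promoter shown above). It was at 0.0754, 0.330 and 5.41 CPM in Lag3-deficient islet libraries and 13.5, 0.0734 and 1.42 CPM in Wt islet libraries, that is 1, 6 and 78 and then 195, 1 and 21 rescaled counts. The NDL libraries held 59.8, 41.9 and 81.0 CPM without Lag3 and 56.6, 25.6 and 127 CPM in Wt Tregs. Every islet library lay below every NDL library, and 3 of the 6 islet libraries were under 1 CPM. The means were 3.46 ± 5.30 CPM in islets and 65.4 ± 35.5 CPM in NDL (SD, n = 6 each), with a difference of -4.48 ± 0.92 (adjusted p = 0.0191). With levels this near 0 the size depended on the pseudocount, and was -5.36 with CPM + 0.25 and -3.09 with CPM + 5, both past the threshold. The adjusted p missed 0.05 when Wt NDL 1b (0.0664), Lag3-deficient NDL 1a (0.0611) or the first Wt NDL column, 1a (0.0565), was left out, when no filter was used (0.0536) and when the columns 1b were left out (0.123).

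Actn1, which encodes the actin crosslinker alpha-actinin 1 (chromosome 12, 80167547 to 80260371, minus strand), was at 10.6, 0.330 and 39.0 CPM in Lag3-deficient islet libraries and 77.6, 42.8 and 22.9 CPM in Wt islet libraries. Its NDL levels were 109, 105 and 40.4 CPM in Lag3-deficient Tregs and 167, 126 and 101 CPM in Wt Tregs. Among NDL libraries, Lag3-deficient 1b alone was as low as islet libraries. The difference, -2.39 ± 0.69, did not pass (adjusted p = 0.131), and passed without Lag3-deficient islet 1b (-2.95, adjusted p = 0.0320).

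Among the transcription factor genes, Lef1 (chromosome 3, 131110471 to 131224356, plus strand) was at 246, 354 and 169 CPM in Lag3-deficient islet libraries and 241, 343 and 128 CPM in Wt islet libraries. The NDL libraries held 313, 495 and 733 CPM without Lag3 and 615, 604 and 559 CPM in Wt Tregs. Lag3-deficient NDL 1a was the one NDL library within the islet range, and column 2 was the highest of its group in the islets of both genotypes. The difference of -1.20 ± 0.32 missed the threshold (adjusted p = 0.0812). It passed without Lag3-deficient islet 2 (-1.41, adjusted p = 0.0295), with the deposited totals (-1.32, 0.0383) and with the second deposited table (-1.40, 0.0123). Its relative Tcf7 (chromosome 11, 52252371 to 52283014, minus strand) was at 243, 39.6 and 59.8 CPM in Lag3-deficient islet libraries and 84.5, 34.8 and 53.6 CPM in Wt islet libraries, against 169.5, 77.5 and 51.7 CPM in Lag3-deficient NDL and 185, 160.1 and 165 CPM in Wt NDL libraries. Its highest level of all 12 libraries was in Lag3-deficient islet 1a, and the difference between tissues was -0.85 ± 0.48 (adjusted p = 0.520).

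Satb1 (chromosome 17, 51736187 to 51833290, minus strand) was at 159, 273 and 155 CPM in Lag3-deficient islet libraries and 183, 126 and 133 CPM in Wt islet libraries. NDL levels were 284, 362 and 195 CPM without Lag3 and 466, 397 and 413 CPM in Wt Tregs. Lag3-deficient islet 2 and NDL 1b were the pair of libraries that crossed. The difference was -1.03 ± 0.30 (adjusted p = 0.128), and passed without Lag3-deficient islet 2 (-1.24, adjusted p = 0.0439). Foxp1 (chromosome 6, 98925338 to 99522721, minus strand) was at 323, 219.6 and 99.0 CPM in Lag3-deficient islet libraries and 185, 113 and 135 CPM in Wt islet libraries, against 229, 279.7 and 339 CPM in Lag3-deficient NDL and 399, 335 and 361 CPM in Wt NDL libraries. Lag3-deficient islet 1a was within the NDL range, and the difference of -0.95 ± 0.32 did not pass (adjusted p = 0.227). Exons of unnamed or predicted genes overlap those of Satb1 and Foxp1 on the same strand and of Lef1, Satb1 and Actn1 on the opposite strand, and the sources used here do not say whether reads were counted by strand, so reads of these genes and of the overlapping ones cannot be told apart.

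The columns 1b were also set against the others as differences of means, with no test. For islets against NDL, Gpr83 differed by -2.29 in the columns 1b (2 libraries against 2) and -1.91 in the others (4 against 4), and Igfbp4 by -4.70 and -4.36. Since no islet library of these 2 genes reached an NDL library, the sign in either set was fixed. Lef1 differed by -2.12 and -0.75, Actn1 by -1.07 and -3.05, and Il7r by 1.82 and -0.34. Tcf7, Satb1, S1pr1 and Foxp1 differed by -1.59 to -0.60 in the columns 1b and -1.06 to -0.63 in the others.

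The same comparison was then made within each genotype, 3 libraries against 3. Without Lag3, 8 of the 9 genes had a negative fold change (median -0.75, against -0.15 over all tested genes), and in Wt Tregs all 9 had one (median -1.54, against 0.10). With limma 0 of 9 passed in Lag3-deficient Tregs, where 0% of tested genes were called lower and 0.12% higher, and 0 of 9 in Wt Tregs, where 0% were called lower and 0.184% higher. At an unadjusted p under 0.05 there were 4 of the 9 in Lag3-deficient Tregs, where 5.29% of tested genes were lower at that level, and 6 of the 9 in Wt Tregs, where 2.52% were. Voom weights called 0 of 9 in both. Of all tested genes they called 4 lower and 19 higher in Lag3-deficient Tregs, and 7 lower and 47 higher in Wt Tregs. All Lag3-deficient islet libraries lay below all Lag3-deficient NDL libraries for Igfbp4, Actn1 and Gpr83, 3 of 9 genes where 7.28% of tested genes did so. All Wt islet libraries lay below all Wt NDL libraries for each gene but Il7r, 8 of 9 where 5.59% of tested genes did so.

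Gpr83 differed by -1.82 ± 0.57 in Lag3-deficient Tregs (adjusted p = 0.292) and -2.24 ± 0.57 in Wt Tregs (adjusted p = 0.157), and Igfbp4 by -4.84 ± 1.31 and -4.12 ± 1.31 (0.204 and 0.324). For both genes the effect sizes in the genotypes lay within an SE of each other. Satb1 differed by -0.52 ± 0.42 without Lag3 and -1.54 ± 0.42 in Wt Tregs, Tcf7 by -0.08 ± 0.67 and -1.63 ± 0.67, and Foxp1 by -0.54 ± 0.46 and -1.36 ± 0.46. Lef1 differed by -0.98 ± 0.45 and -1.43 ± 0.45, S1pr1 by -0.75 ± 0.47 and -0.95 ± 0.47, Actn1 by -3.21 ± 0.98 and -1.57 ± 0.98, and Il7r by 1.14 ± 0.94 and -0.38 ± 0.94. The 4 transcription factor genes, Gpr83 and S1pr1 were thus each nearer 0 in Lag3-deficient Tregs, and Igfbp4, Actn1 and Il7r farther from it. This describes estimates whose differences did not pass, as given below. The sign for Tcf7 in Lag3-deficient Tregs turned positive without Lag3-deficient islet 2 (0.36), islet 1b (0.16) or NDL 1a (0.39) and with RLE scaling (0.07), and the sign for Il7r turned negative without Lag3-deficient NDL 1b (-0.53). In the same Tregs Actn1 was -4.32 without Lag3-deficient islet 1b and -1.95 without islet 2, and Foxp1 was -0.91 without islet 1a and -0.07 without islet 1b. Foxp1 was 0.07 without the columns 1b.

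**Figure D2:**
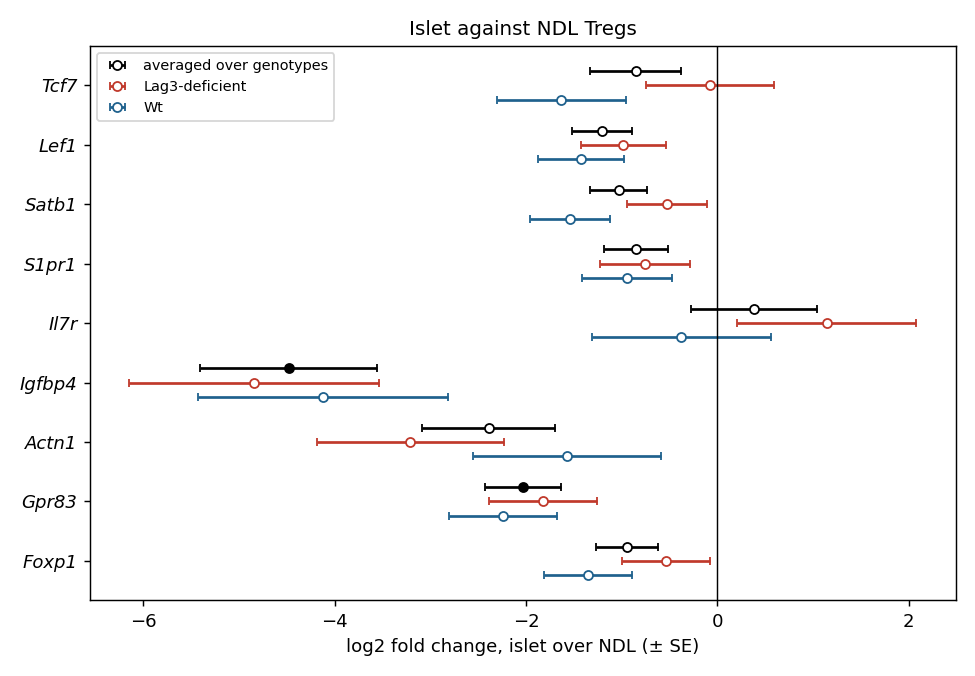
Log2 fold changes of the 9 genes, islet over NDL, with bars of 1 SE, averaged over genotypes (black), in Lag3-deficient (red) and in Wt Tregs (blue). Filled points passed at an adjusted p under 0.05, and these are Igfbp4 (-4.48) and Gpr83 (-2.03) in the averaged comparison.

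Lag3-deficient Tregs were compared with Wt Tregs in each tissue to ask whether the deletion altered these genes. In islets 0 of 9 passed, where 0% of all tested genes were called and 624 had an unadjusted p under 0.05. Of the 9 genes 1 had an unadjusted p under 0.05, and voom weights called 0. The genotypes overlapped for all 9 genes, where 9.32% of tested genes did not overlap. The smallest p belonged to Actn1, whose values of 10.6, 0.330 and 39.0 CPM in Lag3-deficient and 77.6, 42.8 and 22.9 CPM in Wt islets gave -2.35 ± 0.98 (adjusted p = 0.850). Lag3-deficient islet 2, at 6 rescaled counts, was the lowest, and without that library the difference was -1.03. Within the columns 1b, 1 library against 1, 5 of the 9 genes had the sign opposite to the pooled one, namely Actn1 (0.74), Igfbp4 (1.40), S1pr1 (0.41), Gpr83 (-0.17) and Foxp1 (-0.45). Gpr83 differed by 0.74 ± 0.57 (adjusted p = 0.953) and Foxp1 by 0.43 ± 0.46 (0.982), and the other 6 genes had differences between -0.68 and 0.62. The median of the 9 genes was 0.15, against -0.22 over all tested genes, and was negative without Lag3-deficient islet 1a (-0.15). Exocrine markers summed to 33.5 to 409.7 CPM in Lag3-deficient and 155.7 to 2339 CPM in Wt islet libraries, and their part in these differences was not tested.

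In NDL 0 of 9 passed, where 0% of all tested genes were called and 296 had an unadjusted p under 0.05. Of the 9 genes 0 had one, and voom weights called 0. Satb1 was the 1 gene whose libraries did not overlap, with 284, 362 and 195 CPM in Lag3-deficient and 466, 397 and 413 CPM in Wt NDL libraries, as was so for 7.53% of tested genes. Its difference was -0.64 ± 0.42, that of Tcf7 -0.94 ± 0.67 and that of Il7r -1.45 ± 0.94 (adjusted p = 1 for each). Il7r rested on Lag3-deficient NDL 1b and was 0.22 without it. Within the columns 1b, 1 library against 1, Satb1 differed by -1.08, Tcf7 by -1.66 and Il7r by -4.99, and 2 of the 9 genes had the sign opposite to the pooled one, Lef1 (0.39) and Igfbp4 (-0.64). The other 6 genes had differences between -0.72 and 0.33, and the median of the 9 was -0.61, against -0.02 over all tested genes. Lag3-deficient NDL 1b was the lowest of the 6 NDL libraries for 5 of the 9 genes and the highest for 2, so the 9 genes did not move as 1 block in it. It also had 789 tested genes at 0, where the other NDL libraries had 399 to 761. CD8 T cell and NK cell markers summed to 55.0 to 115 CPM in Lag3-deficient and 19.6 to 29.4 CPM in Wt NDL libraries. The part of such cells in these differences was not tested.

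Whether the genotype effect differed between tissues was tested as a difference of differences, which equals the difference between the tissue effects of the genotypes. It was 1.01 ± 0.59 for Satb1, 1.56 ± 0.95 for Tcf7 and 0.82 ± 0.65 for Foxp1 (adjusted p = 1.00 for each), and between -1.63 and 1.52 for the other 6 genes. With limma 0 of 9 passed, where 0% of all tested genes were called and 437 had an unadjusted p under 0.05. Of the 9 genes 0 had one, and voom weights called 0. A genotype dependence of the tissue difference was thus not detectable for these genes at this spread, and the SE of 0.59 to 1.85 log2 units shows how wide the range of undetected sizes is.

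**Figure D3:**
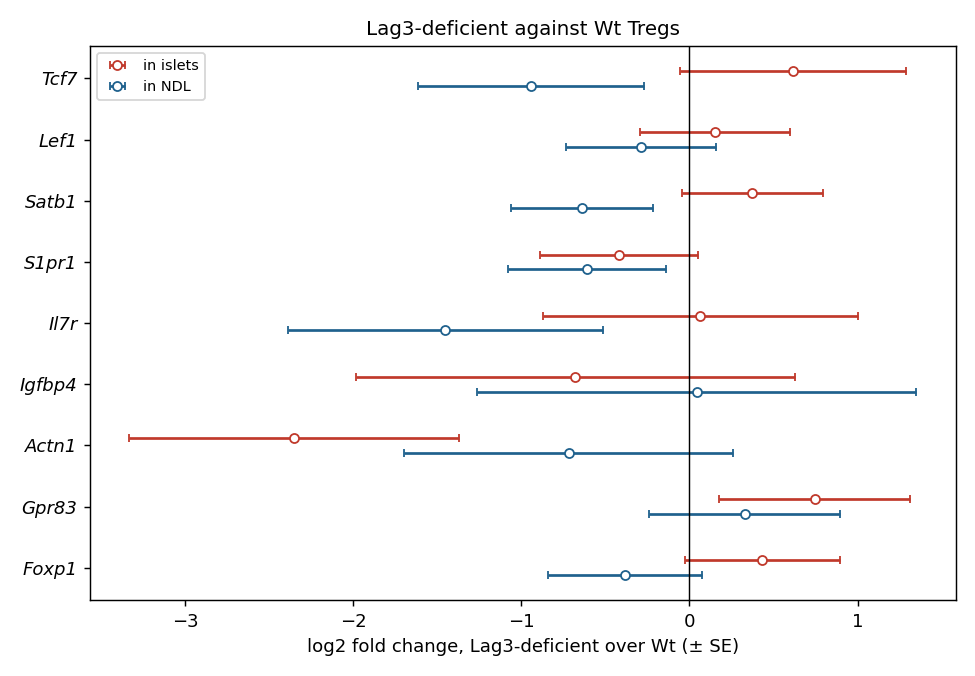
Log2 fold changes of the 9 genes, Lag3-deficient over Wt, with bars of 1 SE, in islets (red) and NDL (blue). No point is filled since none passed, and Actn1 in islets (-2.35) and Il7r in NDL (-1.45) lie farthest from 0.

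By mean level, Wt NDL was the highest of the 4 groups for 8 of the 9 genes and Lag3-deficient NDL for Gpr83. The lowest group was Wt islets for 5 genes (Tcf7, Lef1, Satb1, Gpr83 and Foxp1), Lag3-deficient islets for 3 (S1pr1, Igfbp4 and Actn1) and Lag3-deficient NDL for Il7r. The 2 genotypes of a tissue did not differ past the threshold for any of the 9 genes, so only the order of tissues for Gpr83 and Igfbp4 rests on a passed test. The SD over 3 NDL libraries was larger in Lag3-deficient than in Wt Tregs for 7 of the 9 genes, from Lef1 (211 and 29.8 CPM) to Gpr83, where it was nearly equal (30.5 and 29.4 CPM), and smaller for Igfbp4 (19.6 and 52.1 CPM) and S1pr1 (51.5 and 72.4 CPM). That difference in spread was not tested.

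Within groups, the 9 genes did not vary as a unit. After subtracting group means, Pearson's r over the 12 libraries was positive for 19 of the 36 gene pairs, with a median of 0.04. It was highest for S1pr1 with Actn1 (0.83) and for Gpr83 with Foxp1 (0.70), and lowest for Igfbp4 with Gpr83 (-0.63). Tcf7 ran with S1pr1 (0.64) and Il7r (0.60) but opposite to its relative Lef1 (-0.44). Values of 1 library share its depth and preparation, and these correlations are descriptions with no test.

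Other genes of the same biology were read from lists, also chosen with earlier results of these data known, so their counts are descriptions. Of 20 further naive and recirculating genes 19 were tested, 16 with a negative fold change between islets and NDL averaged over genotypes (median -1.48), 1 of them past the threshold and 0 higher past it. Bach2, a repressor of effector differentiation, was at 14.2 ± 12.7 CPM in islets and 123 ± 56.8 CPM in NDL (-3.19 ± 0.61, adjusted p = 0.0125). Bcl2, a survival gene that IL-7 and IL-2 maintain, differed by -1.81 ± 0.43 (adjusted p = 0.0504), and Pik3ip1, an inhibitor of PI3 kinase, by -3.25 ± 0.80 (0.0566). Of 13 tested TCF1 and LEF1 partners 11 were negative, with a median of -0.43 and 0 past the threshold. Axin2, a target and inhibitor of the canonical Wnt pathway, differed by -1.92 ± 0.94 at 3.87 ± 5.67 CPM in islets and 12.3 ± 11.2 CPM in NDL (adjusted p = 0.454).

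Along the sphingosine 1-phosphate route 9 of 11 listed genes had a row and 6 were tested, 3 negative and 3 positive, and 0 passed. Cd69, whose product pulls S1PR1 from the cell surface, was at 420.3 ± 147 CPM in islets and 236 ± 75.9 CPM in NDL (0.84 ± 0.31, adjusted p = 0.287). Sphk2, a kinase that makes sphingosine 1-phosphate, differed by -1.48 ± 0.52 (0.247). Of 11 genes of IL-7 receptor signalling 7 were negative, with a median of -0.14 and 0 past the threshold, among them Bcl2, which stands in both lists, and the feedback inhibitor Cish (-1.05 ± 0.38, adjusted p = 0.264). The counterpart list of 20 effector Treg genes had 19 positive members, a median of 1.32 and 5 that rose, where 0.819% of tested genes did. They were Il10, a suppressive cytokine gene (6.46 ± 0.88, adjusted p = 0.000480), Ccr2, a receptor for inflammatory chemokines (2.13 ± 0.37, 0.00613), Id2, an inhibitor of E proteins (1.97 ± 0.37, 0.00980), Maf and Tigit. Il10 averaged 151 ± 83.2 CPM in islets (33.1 CPM or more) and 1.31 ± 3.18 CPM in NDL, where its libraries ran from 0 to 7.80 CPM. It met the filter only through islet libraries, so its direction was fixed and its rise adds nothing to the count of 5. In Lag3-deficient Tregs alone 1 of the 20 passed, where 0.12% of tested genes were called higher, and in Wt Tregs 0, where 0.184% were. The exocrine markers given above were also higher in islets.

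**Figure D4:**
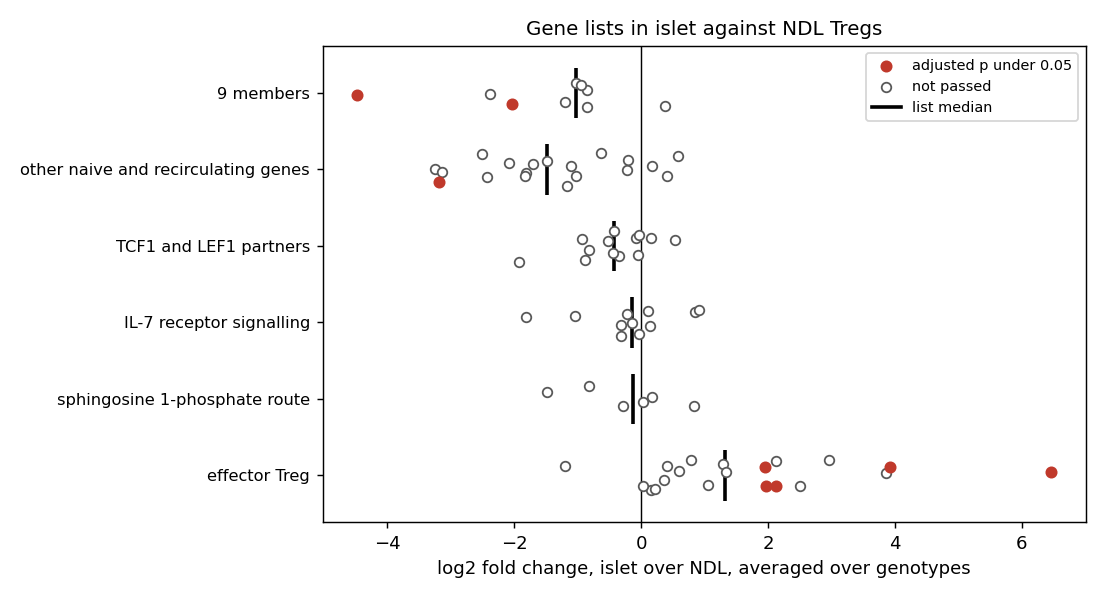
Log2 fold changes, islet over NDL averaged over genotypes, of the tested genes in 6 lists, 1 point per gene, red where the adjusted p was under 0.05, with a bar at the list median. The 9 genes (median -1.03) and the other naive genes (-1.48) lie mostly left of 0, and the effector Treg genes (1.32) mostly right of it.

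The genes whose levels ran most like the mean standardised level of the 9 genes over the 12 libraries, among 5416 candidates, were Rassf2 (Pearson's r = 0.90), Bach2 (0.90), Herc1 (0.86), Hsdl1 (0.86), Ccr7 (0.86) and Mbnl3 (0.83). Ccr7, which guides T cells into lymph nodes, was at 162 ± 32.7 CPM in islets and 353 ± 87.3 CPM in NDL (-1.10 ± 0.30, adjusted p = 0.0986). After subtracting group means, r was 0.55 for Rassf2, 0.56 for Bach2, 0.28 for Herc1, 0.81 for Hsdl1, 0.63 for Ccr7 and 0.39 for Mbnl3. The most opposite were Zfand5 (-0.91), Fos (-0.91), Dusp1 (-0.90), Lcorl (-0.90), Id2 (-0.89) and Polk (-0.89), for which r after subtraction lay between -0.25 and 0.07. The opposite pattern of these 6 genes was therefore a pattern between groups. Fos, an early response gene, averaged 416 ± 71.1 CPM in islets and 3.45 ± 1.95 CPM in NDL (6.70 ± 0.53, adjusted p = 3.27e-07).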

How the data were processed

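The deposited table holds signal values: whole numbers whose 12 column totals nearly agree, read from the values as counts that the authors rescaled and rounded. Raw depth cannot be recovered, so no counting intervals are given. A second deposited signal table of 10317 genes looks quantile normalized and served as an alternative. TopHat2, DESeq2 and mm10 are named in the submitters' processing notes, without roles or versions. Columns were assigned to groups by header. The header number 1 occurs again in each group and those columns carry no further label.

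Since the values were not raw counts, the count test planned for that case was not used. Values were scaled by a trimmed mean of M values (TMM, 30% of ratios and 5% of levels trimmed) to CPM, and log2(CPM + 1) was fitted with limma 3.58.1 (mean-variance trend, R 4.3.3) as 1 model of 4 groups, with Benjamini-Hochberg adjustment. The code was tested on simulated data. Alternatives changed scaling, pseudocount, filter, table, weights, block and libraries. The 9 genes and all lists were chosen with earlier results of these data known. The text names all 9 genes between tissues, the 3 with the smallest p between genotypes (others by range, but with levels for all), up to 3 per further list, and the 6 genes most and least alike with a mean log2 level of 4 or more. Maf, Tigit, Klf2 and the exocrine genes were named after their values were seen.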

Additional observations from a re-analysis of the deposited data

How the results depend on the processing

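Each comparison was repeated under 22 alternatives. Of 594 tissue values of the 9 genes, 573 kept their direction and side of the threshold, 9 reversed, 5 newly passed and 7 no longer passed, and of the genotype values of the 3 genes named in each of the 3 genotype comparisons 196 kept both and 2 reversed. Over all 9 genes, the number with a negative genotype difference ranged from 2 to 5 in islets (3 as reported), 6 to 8 in NDL (7) and 1 to 4 for the difference of differences (2). The 2 genes called over both genotypes became 1 with no filter and 0 without the columns 1b. Leaving out 1 library gave 0 (without Wt NDL 1a) to 4 (without Lag3-deficient islet 2, the library with most tested genes at 0, 927), and 1 without Lag3-deficient NDL 1a or Wt NDL 1b. Gpr83 passed in 20 and Igfbp4 in 17 of the 22 alternatives, with adjusted p between 0.00643 and 0.0797 and between 0.00859 and 0.123. Without the columns 1b, Il7r became -0.37 over both genotypes, -0.46 in Lag3-deficient Tregs and 0.35 between genotypes in NDL, and Foxp1 became 0.068 in Lag3-deficient Tregs. With RLE scaling Tcf7 became 0.072 there. With 1 library left out, Tcf7 in Lag3-deficient Tregs ranged from -0.84 to 0.39, and Il7r from -0.53 to 2.04 there, from -0.45 to 0.82 over both genotypes and from -2.30 to 0.22 between genotypes in NDL. The cause of these changes was not tested. Over all genes, the averaged counts ranged from 4 to 34 lower and 36 to 117 higher, those in Lag3-deficient Tregs from 0 to 18 and 7 to 26, and those in Wt Tregs from 0 to 7 and 8 to 47. Between genotypes in islets the counts were 12 lower and 4 higher without Lag3-deficient islet 1b. RLE scaling moved the all-gene median from -0.15 to -0.03 in the Lag3-deficient tissue comparison and from -0.22 to -0.03 between genotypes in islets, and the deposited totals moved it from -0.04 to -0.14 over both genotypes. Deviations from group means were weakly correlated between libraries of the same column position (2 of 18 correlations over 0.1, from -0.09 to 0.16). Those 2 were between Lag3-deficient and Wt NDL, in columns 1a (0.16) and 1b (0.12). Shared handling by position was not tested. With position as a replicate block the number of the 9 genes called stayed at 2, Gpr83 at -2.03 and Igfbp4 at -4.48. Rescaled totals hide the depth, so the precision of levels near 0, as for Igfbp4 in islets, is unknown.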
